A study of Mus musculus with 70 samples.

Results

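Interferon response genes are the genes that cells switch on after an interferon binds its receptor. The module described here was given as a list of 36 mouse genes. A gene counted as measured where a probe set of the array names it alone, and its brightest probe set on average across the 70 arrays stood for it. In all, 34 of the 36 were measured, among 18193 genes with such a probe set, and the 34 passed a filter on low signal that kept 14593 genes. Isg15 and Ifi44 had no probe set of their own and are not analysed here. The list was not chosen from measured values of single comparisons, although earlier results of these data were known when it was proposed.

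The values come from right lung lobes taken from 70 B6C3F1 mice, all female and 18 weeks old when sampled, with 1 Affymetrix mouse genome array for each mouse. The mice had received 1 of 13 chemicals or a vehicle for 13 weeks, in feed on 7 days a week or by gavage on 5 days a week, and by the labels 7 of the chemicals give lung tumours in mice (called positive here) and the other 6 do not (negative). Animal identifiers fall into set 1, with 3 mice a group, and set 2, with 4 mice a group and 8 corn oil controls. Each chemical was compared with the controls of its own vehicle and set, so that chemicals with the same vehicle and set share control animals.

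In set 1, feed carried 1,5-naphthalenediamine at 2000 ppm (positive), N-(1-naphthyl)ethylenediamine dihydrochloride at 2000 ppm (negative) and pentachloronitrobenzene at 8187 ppm (negative). Corn oil carried 2,3-benzofuran at 240 mg/kg (positive). In set 2, feed carried 4-nitroanthranilic acid at 10000 ppm, malathion at 16000 ppm and diazinon at 200 ppm (all negative), and 2,2-bis(bromomethyl)-1,3-propanediol at 1250 ppm (positive). Corn oil carried 1,2-dibromoethane at 62 mg/kg, benzene at 100 mg/kg or, in another group, coumarin at 200 mg/kg (all positive). Water carried N-methylolacrylamide at 50 mg/kg (positive) and 2-chloromethylpyridine hydrochloride at 250 mg/kg (negative). Controls received feed, corn oil or water with no chemical, water in set 2 alone. Each animal is a separate mouse by its identifier, and each chemical was given at 1 dose, so no dose response can be drawn.

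Type I interferons signal through the kinases Jak1 and Tyk2 to a complex that holds Stat2 and Irf9 and binds the interferon-stimulated response element of its target genes. Interferon gamma signals through Jak1 and Jak2 to the gamma-activated site of its target genes and raises GTPases, the immunoproteasome and chemokines such as Cxcl9. In lung the response is known from virus infection, and a low tonic level is kept in uninfected tissue.

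The 34 members fall into 6 roles. There were 5 transcription factors and feedback regulators (Stat2, Irf1, Irf7, Irf9 and Usp18), 4 sensors of foreign nucleic acid (Ifih1, which encodes MDA5, Ddx58, which encodes RIG-I, Dhx58 and Zbp1), 15 antiviral effectors such as the Ifit, Oas and Mx genes, 5 interferon-inducible GTPases (Gbp2, Gbp3, Irgm1, Igtp and Iigp1), 3 genes of antigen processing (the immunoproteasome subunits Psmb8 and Psmb9 and the peptide transporter Tap1) and the chemokines Cxcl9 and Cxcl10. Levels are log2 probe set signals throughout, which rank animals for 1 gene and not genes against each other. The lung label was borne out by its defining markers: on every array Sftpc, the surfactant gene of alveolar type II cells, was at 14.2 or above, Scgb1a1 of club cells at 13.9 or above and Ager of alveolar type I cells at 13.7 or above.

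The promoters of the members show which of them carry the response element in the bases next to the start of transcription, and a few are printed because they belong to members that the results turn on. RefSeq windows of 300 bases (build GRCm38.p6, 250 bases before the start to 50 after) matched 25 of the 34 members, with 29 windows. The letters GAAANNGAAA, the core of the response element, were searched on both strands, as was the gamma-activated site TTCNNNGAA. The first occurred in 13 of the 29 member windows (44.83%) and in 3.44% of all 32851 windows, and the second in 6 of 29 (20.69%) against 8.3% of all windows. Capitals mark GAAANNGAAA or its reverse complement TTTCNNTTTC, matches may overlap, and each sequence is written 5′ to 3′ in the direction of the gene.
Ifit1 (chr19:34640767-34640831, plus strand, 122 to 58 bases before the start): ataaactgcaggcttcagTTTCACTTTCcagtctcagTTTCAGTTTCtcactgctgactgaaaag
Ifit3 (chr19:34583355-34583434, plus strand, 174 to 95 bases before the start): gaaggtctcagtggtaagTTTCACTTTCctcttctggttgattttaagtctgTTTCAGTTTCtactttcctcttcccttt
Gbp3 (chr3:142559981-142560032, plus strand, 63 to 12 bases before the start): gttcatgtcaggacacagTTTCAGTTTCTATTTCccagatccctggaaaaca
Oas1a (chr5:120907526-120907563, minus strand, 38 to 1 bases before the start): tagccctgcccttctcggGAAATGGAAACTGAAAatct
Irgm1 (chr11:48871421-48871468, minus strand, 48 to 1 bases before the start): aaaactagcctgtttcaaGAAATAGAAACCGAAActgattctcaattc
Igtp (chr11:58199504-58199549, plus strand, 52 to 7 bases before the start): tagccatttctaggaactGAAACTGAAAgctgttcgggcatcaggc
Ifit1, Ifit3 and Gbp3 differed between control groups below and Oas1a, Irgm1 and Igtp did not, so these letters occurred in both kinds of member. Windows of Tap1, Psmb9, Oasl1, Oasl2, Irf7, Irf9, Cmpk2, Xaf1 and Cxcl9 held no match of either kind. Those of Ifit2, Irf1 and Psmb8 held letters of the gamma-activated site alone. A missing match says only that the letters are not in these windows.

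Few members changed with a chemical. Over 13 chemicals and 34 members, 5 of 442 comparisons passed an adjusted p under 0.05, 4 higher and 1 lower. The 4 higher ones belonged to N-methylolacrylamide and the lower one to coumarin, and the other 11 chemicals had no member called. The share of all 14593 genes called was 0 for 4-nitroanthranilic acid, 2,2-bis(bromomethyl)-1,3-propanediol and 2-chloromethylpyridine hydrochloride. It was 0.00685% for N-(1-naphthyl)ethylenediamine dihydrochloride, pentachloronitrobenzene and diazinon, 0.0891% for benzene, 1.11% for 1,5-naphthalenediamine, 2.19% for malathion, 4.03% for 1,2-dibromoethane and 4.07% for 2,3-benzofuran. These shares are so low for most chemicals that 0 of 34 does not set the members apart. The plot of 34 members by 13 chemicals shows the changes.

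**Figure D1:**
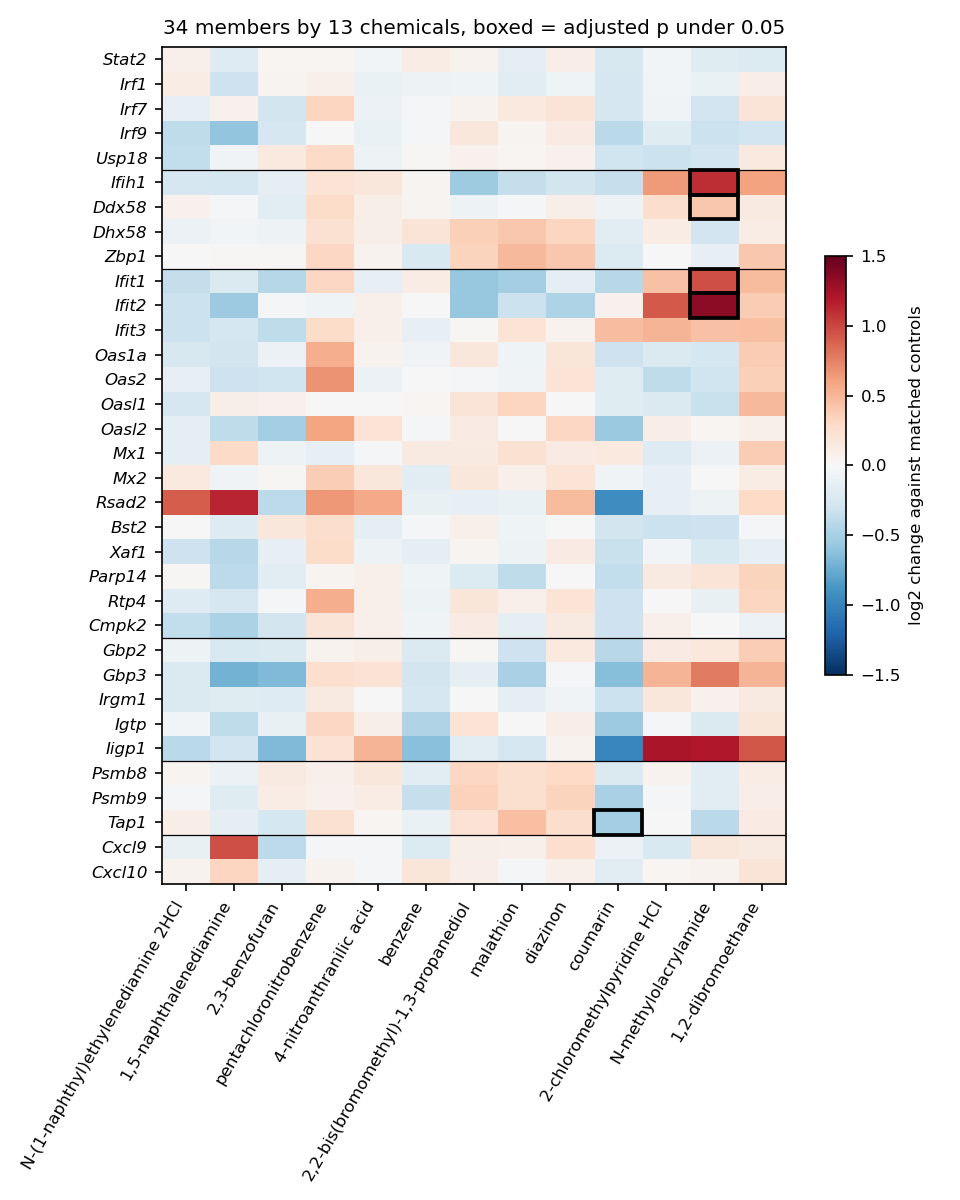
Log2 change of each of the 34 members (rows, grouped by role with lines between the roles) against the matched controls for each of the 13 chemicals (columns), with red higher, blue lower and a box around the 5 changes with an adjusted p under 0.05. Ifih1, Ddx58, Ifit1 and Ifit2 are boxed for N-methylolacrylamide and Tap1 for coumarin, and Iigp1 spans -0.98 to 1.22 without a box.

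N-methylolacrylamide, a crosslinking acrylamide derivative given by water gavage, had 4 of 34 members higher than in the water controls and 0 lower, when 10.7% of all genes were called higher and 7.13% lower. The 4 were the RNA sensors Ifih1 and Ddx58 and the Ifit genes Ifit1 and Ifit2, whose proteins bind foreign RNA. The share of members called, 4 of 34, is close to the share of all genes. The median member changed by -0.10 on the log2 scale, against -0.08 for all genes, and 14 of 34 members had a positive change.

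Ifit2 stood at 5.11, 4.93, 5.62 and 5.80 in the 4 water controls and at 6.08, 7.02, 7.19 and 6.55 in the 4 treated mice. The groups did not overlap, and the log2 change was 1.35 (SE 0.28, adjusted p = 0.0026).
Ifih1 stood at 6.24, 5.50, 6.50 and 6.84 in the water controls and at 6.81, 7.69, 7.76 and 7.28 in the treated mice. The highest control lay just above the lowest treated mouse, and the change was 1.11 (SE 0.30, adjusted p = 0.0086).
The window of Ifit1 holds the response element letters at 2 places, those of Ifih1 and Ddx58 at 1 each, and those of Ifit2 at none. Ifit1 stood at 5.71, 6.21, 6.22 and 6.67 in the water controls and at 6.58, 7.48, 7.08 and 7.54 in the treated mice. The groups overlapped by 1 animal on each side, and the change was 0.97 (SE 0.29, adjusted p = 0.018). Ddx58 stood at 7.87, 7.43, 7.95 and 7.84 in the controls and at 8.23, 8.19, 8.21 and 8.06 in the treated mice, without overlap, a change of 0.40 (SE 0.13, adjusted p = 0.028). The GTPase Iigp1 had a change of 1.20 that did not pass (adjusted p = 0.056), with controls spread from 5.01 to 7.11.

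Those 4 calls depended on the water controls. With the 4 feed controls of set 2 in their place, a comparison chosen after the water controls' levels were seen, 0 of 34 members were called, when 0.87% of all genes were, and the changes were -0.02 for Ifih1, 0.21 for Ddx58, -0.14 for Ifit1 and 0.25 for Ifit2. With the 8 corn oil controls of set 2, 0 of 34 members were called, when 0.0274% of all genes were, and the changes were 0.15, 0.15, -0.04 and 0.33 in the same order. With the water controls, leaving out animal 2-124 left 1 member called, when 299 of all genes were called. Leaving out treated mouse 2-102 left 2, when 909 of all genes were called. Leaving out control 2-129 gave 8, of which 5 were higher and 3 (Irf9, Dhx58 and Tap1) lower, when 3979 of all genes were called. Across these fits the member count rose with the count of all genes, so it does not set the members apart. Feed and corn oil controls differ from the treated mice in vehicle as well as in chemical. With feed controls 2-chloromethylpyridine hydrochloride had Tap1 called higher, at 0.48 (adjusted p = 0.047), when 17% of all genes were called, and with corn oil controls it had 0 members called, when 0.925% of all genes were.

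The filter on low signal kept 80 other genes of the interferon pathway, among them 2 of the 9 listed interferons. Of these 80, 11 were higher and 1 lower with N-methylolacrylamide, when 10.7% and 7.13% of all genes were. The higher ones were led by the GTPase Gbp7 with a log2 change of 1.25 (SE 0.40, adjusted p = 0.024), Slfn5 with 1.16 (SE 0.41, adjusted p = 0.041) and the RNA exonuclease Pnpt1 with 0.94 (SE 0.25, adjusted p = 0.0082). The kinases Jak2 and Jak1 were higher by 0.75 and 0.55, and the phosphatase Ptpn2, which dampens Jak signalling, by 0.74. The adaptor Myd88 was lower by 0.36, written as a log2 change of -0.36 (adjusted p = 0.030).

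2-chloromethylpyridine hydrochloride shares the 4 water controls and had no member called. The smallest p belonged to Ifit2, with a log2 change of 0.92 (adjusted p = 0.35), then Iigp1 with 1.22 and Bst2 with -0.33. Its Ifit2 levels were 5.69, 6.03, 6.22 and 7.22, above the water controls in 3 of 4 mice. Against N-methylolacrylamide itself 0 of 34 members differed, when 0% of all genes did, so no member told the chemicals given in water apart.

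The water controls stood low for 3 of those 4 genes, Ifih1, Ifit1 and Ifit2, against the other vehicles, and Ddx58 did not pass (adjusted p = 0.26 against feed and 0.097 against corn oil controls). Against feed controls of set 2, where 18.2% of all genes were called lower and 15.5% higher, 4 members were lower and 2 higher. Ifih1 stood at 7.91, 7.08, 7.22 and 7.42 in the feed controls, each above the 4 water controls, and the log2 difference of water minus feed was -1.13 (SE 0.30, adjusted p = 0.0027). Ifit1 was at 7.62, 7.23, 7.01 and 7.38 in feed, also without overlap, a difference of -1.11 (SE 0.29, adjusted p = 0.0027). Ifit2 was at 7.15, 6.02, 6.36 and 6.32 in feed, a difference of -1.10 (SE 0.28, adjusted p = 0.0024), and Iigp1 differed by -1.22 (SE 0.46, adjusted p = 0.034).

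The other direction was seen for the transcription factor Irf7, at 6.99, 7.10, 7.41 and 6.66 in water controls against 6.46, 6.41, 6.55 and 6.57 in feed controls, a difference of 0.54 (SE 0.21, adjusted p = 0.036). Tap1 was higher in water controls too, by 0.48 (SE 0.18, adjusted p = 0.028), with 1 water control at 7.42 inside the feed range. Irf7, Iigp1 and Tap1 no longer passed in 7, 6 and 5 of 16 alternative settings, respectively, and Ifih1, Ifit1 and Ifit2 passed in 16 of 16.

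Corn oil controls of set 2 had 5 members above the water controls and 0 below, when 12.3% of all genes were higher and 10.6% lower. They were Iigp1 with a log2 difference of 1.49 (SE 0.39, adjusted p = 0.0054), Ifit2 with 1.01, Ifit1 with 1.01, Gbp3 with 1.00 and Ifih1 with 0.96. The 8 corn oil controls ranged from 6.35 to 8.73 for Iigp1 with a median of 7.43, and the water controls lay at 5.30, 5.01, 7.11 and 6.68. Each of the 5 differences had overlapping groups. In a fit on these 12 arrays alone 0 of 34 members and 0 of all 14593 genes passed, with adjusted p between 0.114 and 0.124 for the 5. Between corn oil and feed controls no member passed, in set 1 (0% of all genes called, 0 members at an unadjusted p under 0.05) or in set 2 (3.46% of all genes called, 7 members at an unadjusted p under 0.05).

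Many of the same genes differed between the sets. In feed controls, set 2 against set 1 had 1 member higher and 8 lower, when 28.8% of all genes were higher and 12.6% lower. Iigp1 stood at 9.23, 9.53 and 9.01 in set 1 and at 7.74, 7.04, 6.88 and 7.31 in set 2, a log2 difference of -2.01 (SE 0.49, adjusted p = 0.0010). The set 2 animals all lay below the set 1 animals. Ifit2 was lower by 1.66, written as -1.66 (SE 0.31), Ifih1 by -1.44 (SE 0.32) and Gbp3 by -1.35 (SE 0.34), and Ifit1, Ifit3, Parp14 and Ddx58 were lower as well. The transcription factor Irf1 was higher by 0.50 (SE 0.14, adjusted p = 0.0036).

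In corn oil controls, 9 members were lower and 3 higher in set 2, when 18.9% and 36.6% of all genes were. The lower ones were the 8 of the feed controls and Rsad2, which encodes viperin, with a difference of -1.04 (SE 0.44, adjusted p = 0.038). Rsad2 stood at 10.39 in set 1 animal 1-22 and at 8.64 and 8.50 in the other two, and without 1-22 the difference was -0.44 (adjusted p = 0.48). It was called in 6 of 11 fits that left out 1 animal. The higher ones were Irf1, Stat2 and Tap1. The labels do not say what distinguishes the sets, so set cannot be told apart from anything else that changed between them. The plot of levels by group shows Ifih1, Ifit1 and Ifit2 highest in set 1 and lowest in the water controls, and Tap1 with another order.

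**Figure D2:**
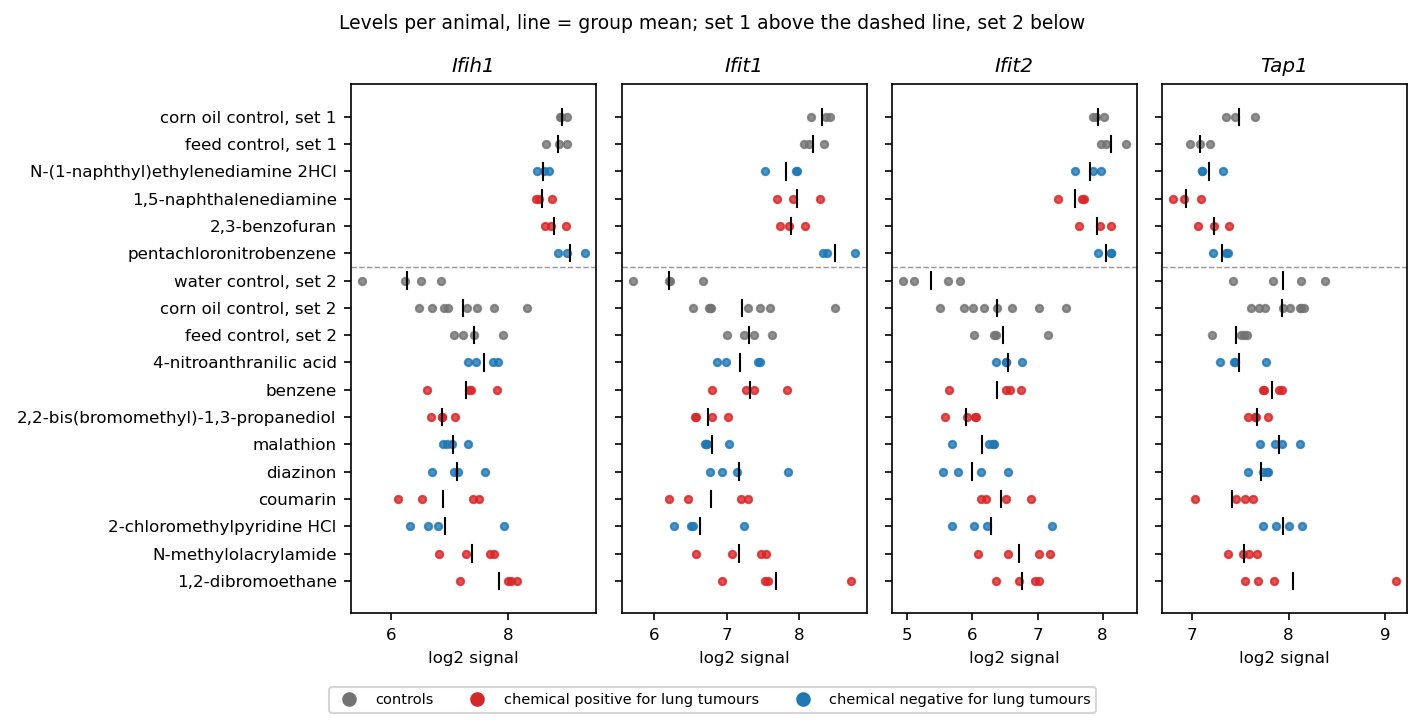
Log2 signal of Ifih1, Ifit1, Ifit2 and Tap1 (x axes) in each of the 70 animals (points) by group (rows), with group means as vertical lines. For Ifih1 the group means run from 6.27 in the water controls to 9.05 with pentachloronitrobenzene, and the set 1 groups above the dashed line lie higher than the set 2 groups.

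Other genes differed between the same groups as well. The first component of the 14559 genes that are no members, which holds 55.1% of their variance over the 70 arrays, separated the sets, with group means between 42.9 and 51.3 for set 1 and none above -0.002 for set 2 (scores on the log2 scale, sign set so that set 1 is positive). The water controls were lowest at -46.0 (SD 15.3, n = 4), against -8.53 for N-methylolacrylamide, -27.01 for 2-chloromethylpyridine hydrochloride, -4.72 for feed controls and -13.8 for corn oil controls of set 2. The mean 3′ minus 5′ signal of control probes for Actb and Gapdh, a measure of RNA length, was 0.12 in water controls, 0.18 with N-methylolacrylamide and 0.29 in feed controls of set 2. The part of either in the member calls was not tested beyond the covariate, with which N-methylolacrylamide again had 4 members called.

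Coumarin, a plant lactone given in corn oil, had 1 of 34 members lower and 0 higher, when 1.18% of all genes were called lower and 2.91% higher. Tap1 stood at 7.03, 7.63, 7.45 and 7.55 in the treated mice. The 8 corn oil controls ran from 7.61 to 8.16 with a median of 7.98, so that 3 of 4 treated mice lay below every control. The log2 change was -0.51 (SE 0.15, adjusted p = 0.038). It rests on the brightest of 4 Tap1 probe sets: the other three had means of 3.12 to 4.69, around the filter of 4.25, and were 0.27 to 0.31 higher with coumarin, without a test, and the mean over the 4 gave 0.09.

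Beyond Tap1, 31 of 34 members had a negative change with coumarin and the median was -0.30, against -0.01 for all genes. At an unadjusted p under 0.05 there were 15 members. Irf9, the DNA-binding partner of Stat2, had a change of -0.40 (adjusted p = 0.053) and Psmb9 one of -0.49 (adjusted p = 0.055). The 5 GTPases had negative changes, with a median of -0.54 and Iigp1 at -0.98, and none passed. Ifit3, at 0.46, was the largest of 3 positive changes. Each coumarin mouse had a negative mean over the 34 members, at -0.50, -0.29, -0.15 and -0.26, and the 8 controls ran from -0.23 to 0.28. Leaving out coumarin mouse 2-72, which was lowest for Tap1, or 1 of the controls 2-59, 2-93 and 2-97 left 0 members called. All genes called numbered 450, 566, 563 and 549 in these fits. Leaving out control 2-95 gave 5 members, when 554 of all genes were called. Tap1 itself was called in 6 of the 12 fits that left out 1 animal, with an adjusted p of up to 0.25.

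Of the 80 pathway genes 4 were lower with coumarin and 0 higher, when 1.18% of all genes were lower and 2.91% higher. They were the GTPase Gbp6 at -1.28 (SE 0.36, adjusted p = 0.024), the transcription factor Irf8 at -0.44, the invariant chain Cd74 at -0.36 and Ifitm3 at -0.20. Markers of T and NK cells moved with them, 5 of 15 lower, and their summed level (log2) ran from 10.8 to 11.3 in coumarin mice and from 10.9 to 11.9 in controls. In bulk tissue, fewer cells of a type and less RNA per cell cannot be told apart, and the part of these cells in the member changes was not tested. Endothelial markers were lower for 3 of 10, and club and ciliated cell markers higher for 4 of 7 and 4 of 9.

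**Figure D3:**
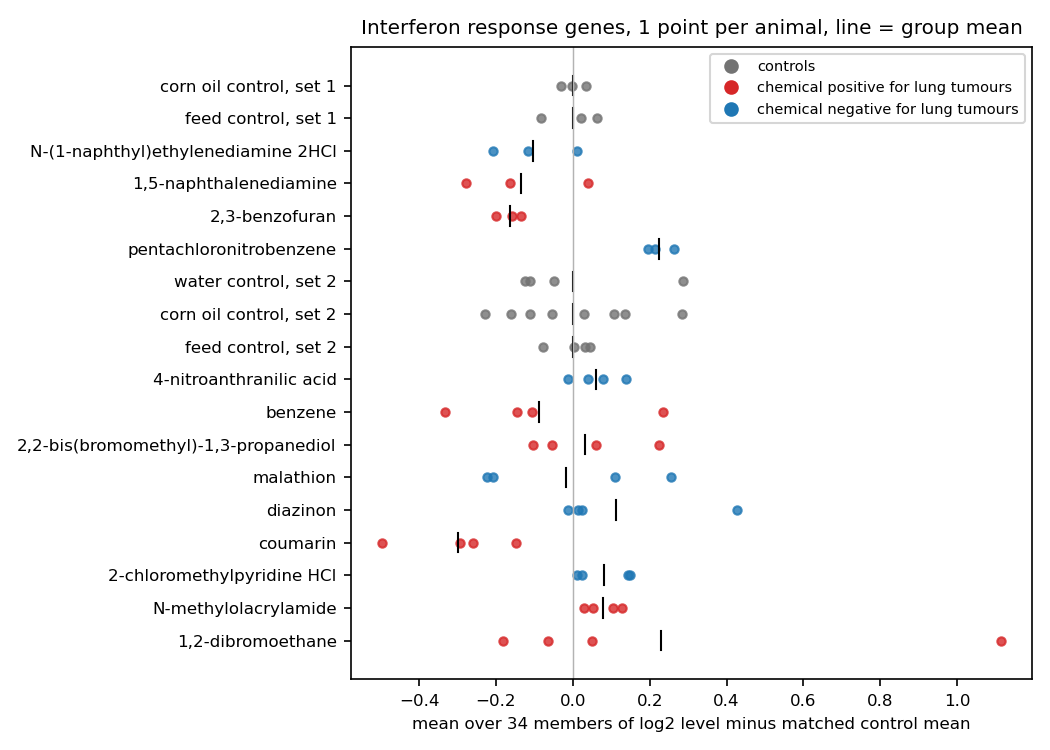
Mean over the 34 members of the log2 level minus the mean of the matched controls (x axis) for each of the 70 animals (points) by group (rows), with group means as vertical lines and 0 as the control mean. The 4 coumarin mice lie between -0.50 and -0.15, the 3 pentachloronitrobenzene mice between 0.20 and 0.26, and 1 mouse given 1,2-dibromoethane at 1.11.

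Pentachloronitrobenzene, a fungicide given in feed, had no member called, but its members leaned one way. The changes of 31 of 34 members were positive, with a median of 0.23 against -0.02 for all genes, and for 11 members the 3 treated mice lay above the 3 controls, which held for 4.23% of all genes. The 3 smallest p belonged to the GTPase Mx2, at 0.37 (SE 0.11, adjusted p = 1.00), Rtp4 at 0.54 and Oas2, an oligoadenylate synthetase that activates RNase L, at 0.68 (SE 0.28). Oas2 stood at 7.04, 7.19 and 6.67 in treated mice and at 6.42, 6.17 and 6.26 in controls. Its relatives Oas1a and Oasl2 had changes of 0.55 and 0.59, also without overlap. The unadjusted p was under 0.05 for 4 members. Of the 80 pathway genes 49 had a positive change, with a median of 0.04 and none called.

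Against 1,5-naphthalenediamine in the same feed and set, 3 members differed from pentachloronitrobenzene, when 0.144% of all genes were lower with 1,5-naphthalenediamine. Rtp4 stood at 8.98, 8.61 and 8.79 with 1,5-naphthalenediamine and at 9.63, 9.58 and 9.55 with pentachloronitrobenzene, a log2 difference of -0.79 (SE 0.21, adjusted p = 0.045). Xaf1, an antagonist of apoptosis inhibitors, differed by -0.69 (SE 0.17, adjusted p = 0.020) and Mx2 by -0.42 (SE 0.11, adjusted p = 0.048). For 24 members the 3 mice of 1,5-naphthalenediamine lay below those of pentachloronitrobenzene, which held for 8.66% of all genes. The doses differed, at 2000 and 8187 ppm. None of the 3 was called when any 1 of the 6 mice was left out. Without 1-4 Cxcl9 was instead called higher with 1,5-naphthalenediamine, by 1.28 (adjusted p = 0.029), when 97 of all genes were called.

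1,5-naphthalenediamine itself had no member called against feed controls. The 3 smallest p belonged to Irf9 at -0.60 (SE 0.17, adjusted p = 0.062), the chemokine Cxcl9 at 0.97 (SE 0.29, adjusted p = 0.10) and Xaf1 at -0.42. Without mouse 1-4 Cxcl9 passed, at 1.27 (adjusted p = 0.032), when 103 of all genes were called. Members with treated mice below controls numbered 11, when 11.1% of all genes were below. The 2 above, when 9.07% of all genes were above, were Rsad2, at 1.14, and Cxcl9. Cxcl9, which draws T cells to tissue, stood at 6.37, 4.91 and 5.21 in treated mice and at 4.53, 4.72 and 4.32 in controls, with mouse 1-2 highest by over 1 unit. The other naphthyl amine, N-(1-naphthyl)ethylenediamine dihydrochloride, at the same 2000 ppm, had Cxcl9 at 4.58, 4.38 and 4.28. The direct difference, N-(1-naphthyl)ethylenediamine dihydrochloride minus 1,5-naphthalenediamine, was -1.08 (SE 0.29, adjusted p = 0.033), the 1 call among 34 members when 1.49% of all genes were lower. It was -0.64 and no longer passed without mouse 1-2 (adjusted p = 0.49). Both amines had Rsad2 above the controls in each of 3 mice, at 9.84, 8.90 and 10.05 and at 9.65, 9.16 and 9.30 against 8.68, 8.37 and 8.33, and neither change passed (adjusted p = 0.49 and 0.72). For N-(1-naphthyl)ethylenediamine dihydrochloride the 3 smallest p belonged to Usp18 at -0.37, Irf9 at -0.38 and Xaf1 at -0.31.

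1,2-dibromoethane, an alkylating fumigant given in corn oil, had no member called, and its group held 1 mouse unlike the others. The mean over the 34 members was 1.11 in mouse 2-54 and -0.18, -0.06 and 0.05 in the other three. Mouse 2-54 was the highest of its group for 33 of 34 members and stood above the 8 controls as well for 27 of 34 (79.4%), which held for 7.65% of all genes. Rsad2 was at 10.4 in this mouse, 7.59 to 7.93 in the other three and 6.84 to 9.91 in controls. The 5 GTPases were 1.53 to 2.46 higher on the log2 scale than the mean of the other three mice, led by Iigp1. Among members with printed response element letters, Igtp was 2.32, Gbp3 1.87, Oas1a 1.85, Irgm1 1.64, Ifit1 1.36 and Ifit3 0.16 higher. Oas2, Oasl2 and Oas1a were 1.96, 1.89 and 1.85 higher, and Irf7 was 1.63 higher. The windows of Oasl2 and Irf7 held no match of those letters. Ifit3, Bst2, Usp18, Ddx58, Ifit2, Xaf1 and Ifih1 were 0.16 to 0.42 higher. Of the members called between the water and other controls, Iigp1 was 2.46, Gbp3 1.87, Tap1 1.42, Ifit1 1.36, Ifih1 0.42 and Ifit2 0.35 higher in this mouse, besides Irf7.

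Outside the members, 42 of 80 pathway genes in mouse 2-54 stood above the other 11 animals, with Oas3 2.95, Gbp6 2.16, Nlrc5 2.07 and Irgm2 2.00 higher than in the other three mice. Neutrophil markers were higher still. The 8 measured stood above the other 11 animals, with a median of 3.44 more than in the other three mice, and their summed level was 14.9 against 11.4, 11.8 and 12.2, with 10.6 to 13.9 in controls. Of 7 monocyte markers 5 stood above the other 11, and of 15 T and NK cell markers none did. Of 3 erythroid markers 2 did, with a summed level of 12.1 against 10.5 to 10.9 in the other three mice and 10.4 to 12.1 in controls. Of 11 B and plasma cell markers 3 did, with a summed level of 14.6 against 12.3 to 12.9 and 12.5 to 13.7 in controls. The part of these cells in the member levels was not tested. The plot of members in this group shows the 4 mice over the range of controls.

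**Figure D4:**
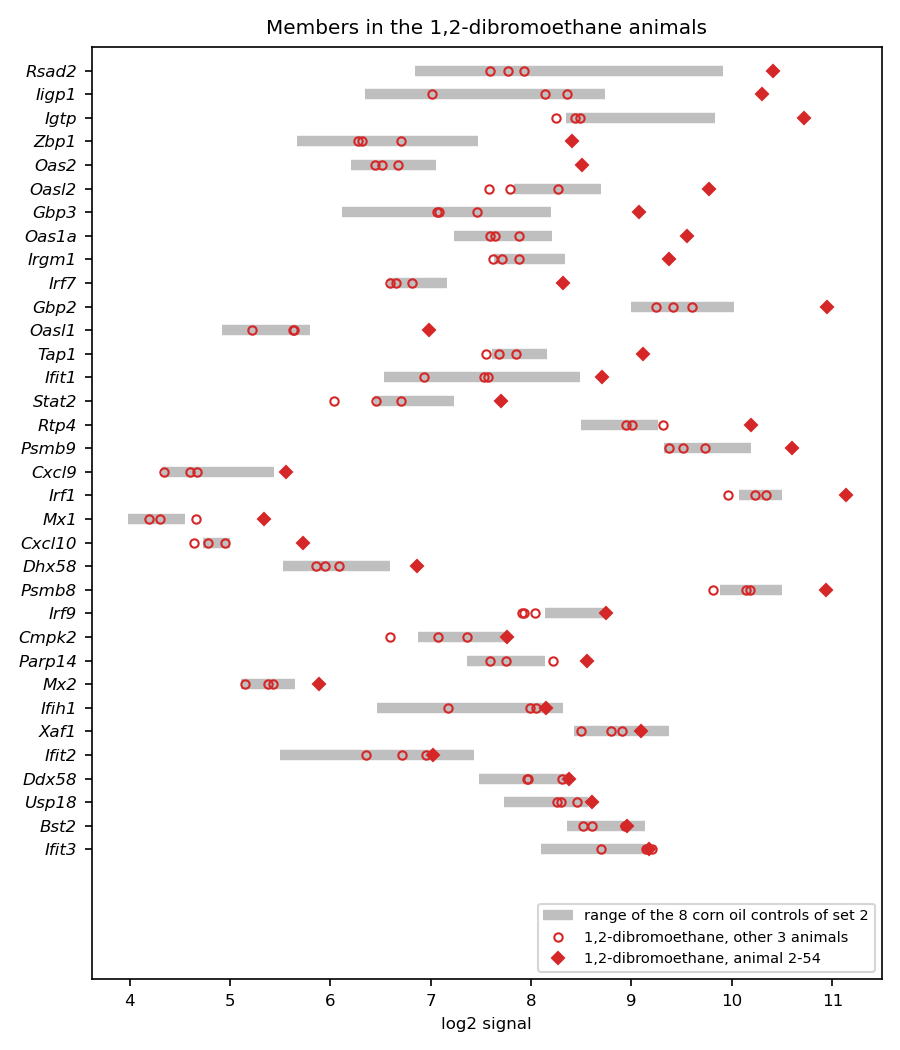
Log2 signal (x axis) of the 34 members (rows, ordered by how far mouse 2-54 lies above the other 3 mice) in the 4 mice given 1,2-dibromoethane (diamond for 2-54, circles for the others), over the range of the 8 corn oil controls of set 2 (grey bars). The diamond lies to the right of the bar for 27 members, with Rsad2 at 10.4 in the top row. For the other members, among them Cmpk2 and Ifit3, it lies inside the bar.

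With mouse 2-54, 29 of 34 members had a positive change and the median was 0.19, against 0.00 for all genes. The 3 smallest p belonged to Mx1 at 0.38 (adjusted p = 0.080), Oasl1 at 0.48 (adjusted p = 0.085) and Ifih1 at 0.61 (adjusted p = 0.17). Without it, 12 of 34 were positive and the median was -0.09. Irf9 and Stat2 were then called lower, at -0.48 (adjusted p = 0.024) and -0.53 (adjusted p = 0.042), when 360 of all genes were called. Another mouse of the group, 2-56, had the highest 3′ minus 5′ value of the 70 arrays, 0.99. Without mouse 2-56 Mx1 was the 1 member called, at 0.49 (adjusted p = 0.037), when 488 of all genes were called. Leaving out mouse 2-52 gave 3 members higher and a median member change of 0.34, when 559 of all genes were called. Leaving out mouse 2-58 gave 0 members, when 351 of all genes were called.

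Direct contrasts with 1,2-dibromoethane carried the other calls between chemicals. Coumarin had 4 members lower than 1,2-dibromoethane and 0 higher, when 0.692% of all genes were lower. Iigp1 stood at 5.77, 5.87, 7.60 and 6.90 with coumarin and at 7.02, 10.30, 8.36 and 8.14 with 1,2-dibromoethane, a log2 difference of -1.92 (SE 0.46, adjusted p = 0.017). Gbp3 differed by -1.14 (adjusted p = 0.044), Parp14 by -0.70 (adjusted p = 0.016) and Tap1 by -0.63 (adjusted p = 0.046). Without mouse 2-54 the differences were -1.30, -0.67, -0.53 and -0.28 and 0 members passed, when 44 of all genes did. Without coumarin mouse 2-72 or 2-75 0 members passed as well, when 133 and 50 of all genes did. The fits without 2-56, 2-58, 2-76 or 2-80 gave 3 to 8 members, and that without 2-52 gave 11, when 521 of all genes passed. Benzene had Iigp1 lower than 1,2-dibromoethane by -1.57 (SE 0.46, adjusted p = 0.024), the 1 call when 2.41% of all genes were lower. Without mouse 2-54 the Iigp1 difference was -0.95 (adjusted p = 0.18). Stat2 and Irf9 were then instead called higher with benzene, by 0.64 and 0.45, when 745 of all genes were called. Without benzene mouse 2-90 0 members were called, when 407 of all genes were. Iigp1 was called in 6 of 8 fits of this contrast that left out 1 mouse. Doses differed between these chemicals. In all there were 9 calls, of 8 members, in 4 of 13 direct contrasts, each lower in the chemical named first, and 9 contrasts had none. In 6 of those 9 no gene was called at all, and the shares of all genes were 0.281% for malathion against diazinon, 0.706% for 4-nitroanthranilic acid against malathion and 4.84% for benzene against coumarin.

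The remaining chemicals gave small member changes. For 2,3-benzofuran the 3 smallest p belonged to Gbp3 at -0.66 (adjusted p = 0.36), Oasl2 at -0.51 and Irf9 at -0.25, and 9 members had the 3 treated mice below the controls, when 3.93% of all genes had. For benzene they were Psmb9 at -0.35 (adjusted p = 0.50), Igtp at -0.45 and Mx2 at -0.16. For malathion they were Tap1 at 0.45 (SE 0.18, adjusted p = 0.15), with the 4 treated mice above the 4 controls, Parp14 at -0.38 and Dhx58, a regulator of RIG-I-like receptors, at 0.40. For diazinon, the other organophosphate, they were Mx2 at 0.20 (adjusted p = 0.88), Psmb8 at 0.30 and Psmb9 at 0.33. For 2,2-bis(bromomethyl)-1,3-propanediol they were Psmb8 at 0.31 (adjusted p = 0.46), Ifit2 at -0.56 and Ifit1 at -0.57, and for 4-nitroanthranilic acid Mx2 at 0.17 (adjusted p = 1.00), Rsad2 at 0.57 and Iigp1 at 0.51. None of these changes passed, so changes of these sizes or smaller were not told apart from the spread between mice. The sizes are no limit of detection. The pooled SD between mice within groups ran from 0.13 for Mx2 to 0.67 for Rsad2.

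No member passed a test against the lung tumour class of the chemicals. With the chemical as the replicate, 7 positive against 6 negative, 0 of 34 members and 0 of 14593 genes passed in limma (3 members and 943 genes at an unadjusted p under 0.05). The 3 were Tap1, with a mean change of -0.15 (SD 0.26, n = 7) in positive and 0.18 (SD 0.17, n = 6) in negative chemicals, Oasl2, with -0.18 (SD 0.29) and 0.18 (SD 0.25), and Igtp, with -0.19 (SD 0.30) and 0.07 (SD 0.13). The adjusted p was 0.75 for Tap1 and Oasl2 and 0.76 for Igtp. Chemicals with the same controls are not independent in this comparison.

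Within groups the members varied together from mouse to mouse. Over the 70 animals, each taken as the deviation from its group mean, 510 of 561 pairs of members had a positive correlation, with a median r of 0.40, from -0.54 to 0.92. Without mouse 2-54 the median was 0.30 and 473 pairs were positive. Oasl2, an oligoadenylate synthetase-like gene, lay closest to the mean of the other 33 members (r = 0.91), followed by Gbp2 (0.87), Rtp4 (0.83) and Irgm1 (0.83), and Bst2, which encodes tetherin, lay farthest (0.17). These are descriptions over animals that share arrays and group means, and no p is given. Correlations between pairs of other genes were not computed, so these values do not set the members apart.

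The members were also set against a component of the other 14559 genes. It holds the largest share (26.4%) of the variance of those genes' deviations from group means. The share of all genes with r of a given size was not computed, so these r do not set the members apart. The sign of the component was set so that Ifih1 has a positive r. Ifih1 (r = 0.89), Ifit2 (0.86), Iigp1 (0.74), Ifit1 (0.70), Gbp3 (0.67), Parp14 (0.64) and Ddx58 (0.62) rose with the component, while Bst2 (-0.63), Irf9 (-0.42), Dhx58 (-0.41), Psmb8 (-0.40) and Irf1 (-0.40) ran the other way. Spearman's rho was 0.89 for Ifih1, 0.86 for Ifit2 and -0.57 for Bst2, and without the 2 animals farthest along it r was 0.88, 0.82 and -0.57. The 7 members with r above 0.5 are 7 of the 8 that were lower in set 2 feed controls than in set 1, Ifit3 being the other with 0.39. Oasl2, Gbp2, Rtp4 and Irgm1, closest to the mean of the other members, had r of 0.22, 0.35, 0.05 and 0.38 with this component. The plot of both correlations sets the members out.

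**Figure D5:**
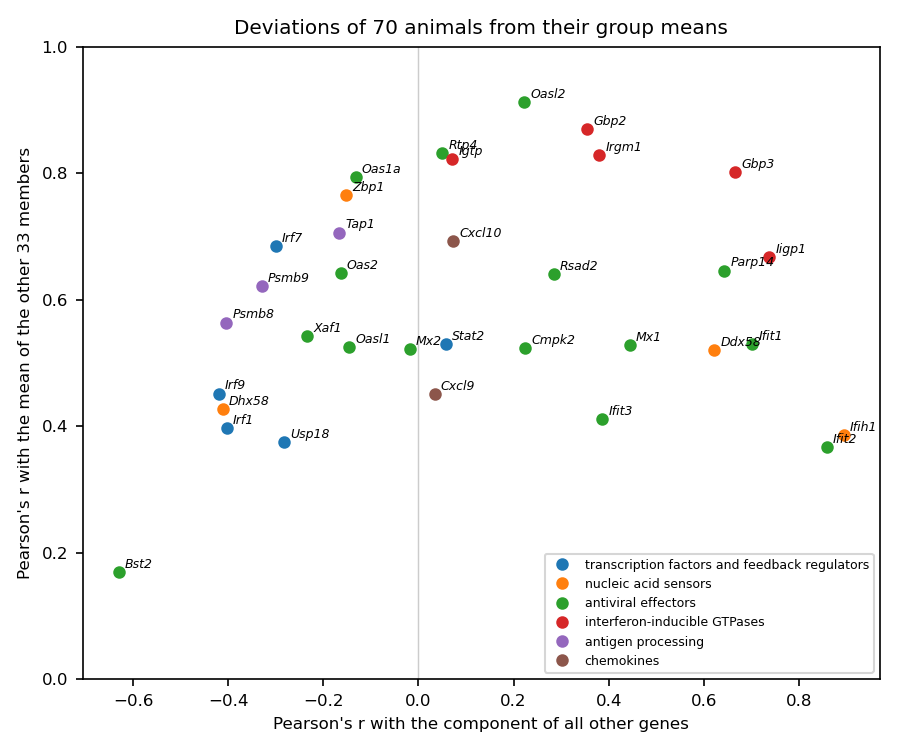
Each point is 1 of the 34 members, coloured by role, with Pearson's r over 70 animals (deviations from group means) against the first component of the 14559 other genes on the x axis and against the mean of the other 33 members on the y axis. Ifih1 and Ifit2 sit at the right with 0.89 and 0.86, Oasl2 at the top with 0.91, and Bst2 at the left with -0.63. The sign of the component was set so that Ifih1 is positive.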

How the data were processed

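The log2 probe set signals were used as deposited by the authors. They run from 2.47 to 14.5 with array medians of 5.41 to 5.52, and their summarization and normalization are not given in the sources used here. Symbols came from the platform annotation, and 1 probe set stood for each gene. Genes above the 30th percentile of probe set means (4.25) were kept. One model with a mean for each of 18 groups was fitted to 70 arrays with limma 3.58.1 (lmFit, eBayes) in R 4.3.3, with Benjamini-Hochberg adjustment over 14593 genes within each comparison and calls at an adjusted p under 0.05. Errors are standard errors of that fit. The number of arrays limits the precision. The scripts were tested on simulated data. Promoters are from RefSeq. Plots used Python 3.11.15 (matplotlib 3.10.9).

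The members and the pathway and marker lists were chosen with earlier results of these data known. The text names called members with values by animal, for other chemicals the 3 members with the smallest p, and up to 6 called pathway genes for each comparison. Members named beyond that were picked with their values in view. Animals were grouped by chemical, vehicle and set from the labels. Alternatives are given in the closing section.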

Additional observations from a re-analysis of the deposited data

Results flagged for a closer look

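Direct contrasts of chemicals with the same controls gave 9 calls, of 8 members, each a difference between treated groups. N-(1-naphthyl)ethylenediamine dihydrochloride minus 1,5-naphthalenediamine gave -1.08 for Cxcl9. 1,5-naphthalenediamine minus pentachloronitrobenzene gave -0.42 for Mx2, -0.69 for Xaf1 and -0.79 for Rtp4. Benzene minus 1,2-dibromoethane gave -1.57 for Iigp1. Coumarin minus 1,2-dibromoethane gave -0.70 for Parp14, -1.14 for Gbp3, -1.92 for Iigp1 and -0.63 for Tap1.

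Diazinon mouse 2-28 stood apart from the other 3 mice of its group, with a mean member change of 0.43 against -0.01, 0.01 and 0.02. Chance would mark about 1 in 20 groups in this way, and 22 groups of values were examined. Mouse 2-54 of 1,2-dibromoethane, described above, fell just short of the same limit.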

How the results depend on the processing

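Counts of members called moved by over 1.5 times under these settings. Shares of all genes called under the same setting follow in percent. With array weights the counts were 14 for N-methylolacrylamide (40.9%), 14 for water against feed controls (52%), 5 for 2,2-bis(bromomethyl)-1,3-propanediol (20.3%), 3 each for 1,5-naphthalenediamine (6.24%), malathion (16.2%), coumarin (7.29%) and corn oil against feed controls of set 2 (15.8%), and 1 each for N-(1-naphthyl)ethylenediamine dihydrochloride (4.85%), pentachloronitrobenzene (0.514%), 2-chloromethylpyridine hydrochloride (2.15%) and 1,2-dibromoethane (4.21%). With controls of both sets pooled they were 6 for malathion (25%), 5 for 2,3-benzofuran (23%), 4 for 1,5-naphthalenediamine (4.1%), 3 each for 2,2-bis(bromomethyl)-1,3-propanediol (15.7%) and coumarin (6.03%), and 1 each for N-(1-naphthyl)ethylenediamine dihydrochloride (6.11%) and 1,2-dibromoethane (2.19%). Coumarin had 2 with a filter at the 50th percentile (4.78%), 2 after quantile normalization (4.98%), 3 with the 3′ minus 5′ covariate (4.28%), and 0 with the mean over all probe sets (4.19%) or the arrays of its groups alone (1%). The contrast of the naphthyl amines had 0 with the 50th percentile (2.11%) or the mean over all probe sets (1.68%), and coumarin against 1,2-dibromoethane had 2 with that mean (1.61%) and 8 after quantile normalization (2.25%). Quantile normalization gave corn oil against feed controls of set 2 a count of 1 (4.06%). Fits on the arrays of 2 groups alone gave 3 for 1,5-naphthalenediamine (2.01%) and 0 for corn oil against water controls (0%). The cause of these moves was not tested.

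Signs turned for Tap1 under the mean over all probe sets, to 0.089 for coumarin against controls and 0.071 against 1,2-dibromoethane. Further settings were chosen after seeing the data. With feed controls in place of water controls, N-methylolacrylamide had 0 members called, with Ifih1 at -0.021 and Ifit1 at -0.14, and 2-chloromethylpyridine hydrochloride had 1. With corn oil controls N-methylolacrylamide had 0, with Ifit1 at -0.041. With N-methylolacrylamide the 4 animals' means over members averaged 0.08, and their medians over members averaged -0.076.

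Leaving out 1 animal at a time gave 1 to 8 members for N-methylolacrylamide, 0 to 5 for coumarin, 0 to 3 for 1,2-dibromoethane, 0 to 1 for 1,5-naphthalenediamine, 0 to 1 for each of its direct contrasts (main counts 1 against the naphthyl diamine salt and 3 against pentachloronitrobenzene), 0 to 8 for benzene and 0 to 11 for coumarin against 1,2-dibromoethane, 3 to 11 for water against feed controls, 2 to 7 for corn oil against water controls and 0 to 1 for corn oil against feed controls of set 2. The count of all genes called moved between these fits as well. It ran from 299 to 3979 for N-methylolacrylamide and from 3066 to 5554 for water against feed controls. Against 1,2-dibromoethane it ran from 407 to 1868 for benzene and from 44 to 545 for coumarin. For N-methylolacrylamide the fewest and most members came with the fewest and most of all genes, so that range does not set the members apart. For coumarin against controls the member count did not follow that of all genes. It was 0 without 2-59, when 566 of all genes were called, and 5 without 2-95, when 554 were. For coumarin against 1,2-dibromoethane it was 3 without 2-56, when 66 of all genes were called, and 0 without 2-72, when 133 were. Whether these ranges set the members apart was not tested. No paired analysis was possible because animal identifiers are not shared between groups. The number of arrays, 3 or 4 for most groups, limits what these comparisons can show. The p-values of the main fit rest on the spread between mice within groups, pooled over all groups. They are not measured from the compared groups alone, whose own spread may be larger or smaller. They cover no variation beyond that between the mice of this study.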
